A study of Mus musculus with 8 samples.

Results

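The genes described here are the IGF binding proteins Igfbp2, Igfbp3, Igfbp4, Igfbp5, Igfbp6 and Igfbp7, the receptors Igf1r and Insr, and the receptor substrates Irs1 and Irs2, 10 of the 38293 gene identifiers counted in mouse mammary tumor organoids. They are defined by name and role, and were chosen with earlier results of these data known. The organoids came from MMTV-PyMT mice that also carried MMTV-Cre and Ecadherin-mCFP, in which a viral promoter active in mammary epithelium drives the polyoma middle T oncogene, and all groups shared these alleles. CRISPR/Cas9 had been used to make SOX4 knockout lines (SOX4KO), and each line is 1 clone. Bulk RNA was sequenced from 2 control lines (WT1 and WT3) and 3 SOX4KO lines (H7, M4 and H4), and single cells were sequenced from 1 control plate (GR17) and 2 SOX4KO plates (GR18 and GR19). All were harvested 4 days after they had been split to single cells, in medium with B27, a supplement that contains insulin, and FGF2, and the labels do not link the single-cell plates to the bulk lines.

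Insulin-like growth factors signal through the receptor tyrosine kinase encoded by Igf1r, and insulin through that encoded by Insr. Both receptors pass the signal to PI3K and AKT through docking proteins such as IRS1 and IRS2. Secreted IGF binding proteins hold IGFs outside the cell and can lower or prolong their access to the receptor, and IGFBP7 binds IGFs only weakly. In the mammary gland IGFBP5 is best known for its rise during involution, when the milk-producing epithelium is removed.

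In bulk RNA, Igfbp3 and Igfbp7 were higher in the SOX4KO lines, the former 4.79-fold and the latter 3.47-fold. The receptors and substrates did not pass the test. Igfbp5 was by far the most abundant member and had nearly the same bulk level in both genotypes, whereas its summed single-cell level was 3.51-fold and 3.64-fold higher in the 2 SOX4KO plates than in the control plate. The regions around the start sites of these 3 genes are shown. Each passed the bulk test as higher in SOX4KO or was at least 2-fold higher on both SOX4KO plates. They did not carry all the differences. The summed single-cell level of Igfbp2 was lower, at 0.204 times the control plate in GR18 and 0.193 times in GR19. Of the 10 members, 9 were found in the RefSeq promoter table of GRCm38.p6, where Igfbp2 had 2 start sites and Insr had no entry. Each line below runs from 250 bases before to 50 bases after a start site, with capitals marking CpG dinucleotides. The windows are chr11:7213874-7214173 for Igfbp3, chr5:77407996-77408295 for Igfbp7 and chr1:72874816-72875115 for Igfbp5, all on the minus strand.
Igfbp3: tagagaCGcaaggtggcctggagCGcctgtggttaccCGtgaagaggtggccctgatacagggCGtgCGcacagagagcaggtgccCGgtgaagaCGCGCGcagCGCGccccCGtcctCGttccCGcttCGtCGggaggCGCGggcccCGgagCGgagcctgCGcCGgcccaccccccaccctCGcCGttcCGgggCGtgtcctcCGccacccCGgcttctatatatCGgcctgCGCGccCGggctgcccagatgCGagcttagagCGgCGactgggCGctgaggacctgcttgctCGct
Igfbp7: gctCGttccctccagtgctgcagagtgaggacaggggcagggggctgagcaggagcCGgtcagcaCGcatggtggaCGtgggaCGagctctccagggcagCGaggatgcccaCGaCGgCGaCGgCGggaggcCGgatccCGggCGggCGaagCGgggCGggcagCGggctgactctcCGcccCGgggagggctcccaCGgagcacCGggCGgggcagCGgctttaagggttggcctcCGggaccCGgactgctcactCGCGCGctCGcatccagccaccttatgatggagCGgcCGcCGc
Igfbp5: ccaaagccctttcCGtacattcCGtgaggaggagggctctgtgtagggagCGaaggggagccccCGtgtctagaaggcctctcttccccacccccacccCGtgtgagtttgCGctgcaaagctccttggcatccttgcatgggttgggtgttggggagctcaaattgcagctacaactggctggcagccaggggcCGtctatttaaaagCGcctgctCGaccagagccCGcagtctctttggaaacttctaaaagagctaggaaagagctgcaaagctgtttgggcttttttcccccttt

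The Igfbp3 window held 37 CpG with 71.7% GC, the Igfbp7 window 33 CpG with 73.3% GC, and the Igfbp5 window 10 CpG with 56.3% GC. Over all 32851 windows of the table, the median was 7 CpG and 52.7% GC. The 2 genes called in bulk thus had CpG-rich starts, and the Igfbp5 start was nearer the median. CpG-rich starts were not confined to the called genes. The windows held 48 CpG for Igf1r, 41 for Irs2, 28 for Irs1, 27 for Igfbp4, 18 and 14 for Igfbp2, and 8 for Igfbp6. Because SOX4 is a transcription factor of the SOX family, the windows were searched on both strands for the SOX-like motifs AACAAAG and AACAATG, and for the forkhead-like motif GTAAACA, which FOXO factors downstream of AKT can bind. None of the 10 member windows held any of these letters. Among all windows AACAAAG was in 5.85%, AACAATG in 3.78% and GTAAACA in 3.65%, and their absence here says nothing about binding elsewhere.

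The bulk libraries held 3050323 (M4) to 4678497 (WT3) reads on genes. M4 also had the highest share of mitochondrial reads, 7.66% against 3.97% to 5.45% in the other lines, and the most reads outside annotated genes, 64.7% against 46.6% to 55.6%. Sox4, the targeted gene, had normalized CPM (reads scaled to a common library total) of 295 and 374 in WT1 and WT3 and of 199, 179 and 299 in H7, M4 and H4, a log2 fold change of -0.57 (SE 0.25) that did not pass the test (edgeR quasi-likelihood, adjusted p = 0.277). The knockouts are small insertions or deletions, so the RNA level does not measure the loss of protein. The luminal markers Krt8 and Krt18 had at least 321 and 394 CPM in every line. The basal markers Krt14, Krt5 and Trp63 had at least 107, 47.8 and 70.9 CPM in every line. The basal markers Acta2 and Cnn1 reached at most 1.08 and 0.36 CPM, and the luminal marker Areg at most 0.26 CPM. Markers of leukocytes, endothelial cells and adipocytes summed to at most 14.4, 2.52 and 7.42 CPM, and the fibroblast markers summed to 58.7 to 104 CPM. Pdgfra, at 41.4 to 99.8 CPM, made up most of the fibroblast sum in every line. Pdgfrb and Dcn reached 16.4 and 11.7 CPM in H7, whereas Dpt and Fap were at 0 in all 5 lines. In bulk RNA, fewer cells of a type and less RNA per cell cannot be told apart.

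Of the 10 members, 8 had enough reads to be tested, and Igfbp4 and Igfbp6 did not. At an adjusted p under 0.1, edgeR called 2 members higher in SOX4KO and 0 lower, where of all 11682 tested genes it called 6.27%, of which 4.1% were higher and 2.17% lower. At an unadjusted p under 0.05, edgeR gave 2 members higher and 0 lower, against 18.1% of all genes in either direction. DESeq2, at an adjusted p under 0.1, called 1 member higher and 0 lower, beside 658 and 305 of all genes. The median log2 fold change of the 8 tested members was 0.17, with 5 above 0 and 3 below, beside a median of 0.01 over all genes, of which 5941 were above 0 and 5741 below. The groups of lines did not overlap in 2 of the 8, against 36.9% of all genes tested.

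**Figure D1:**
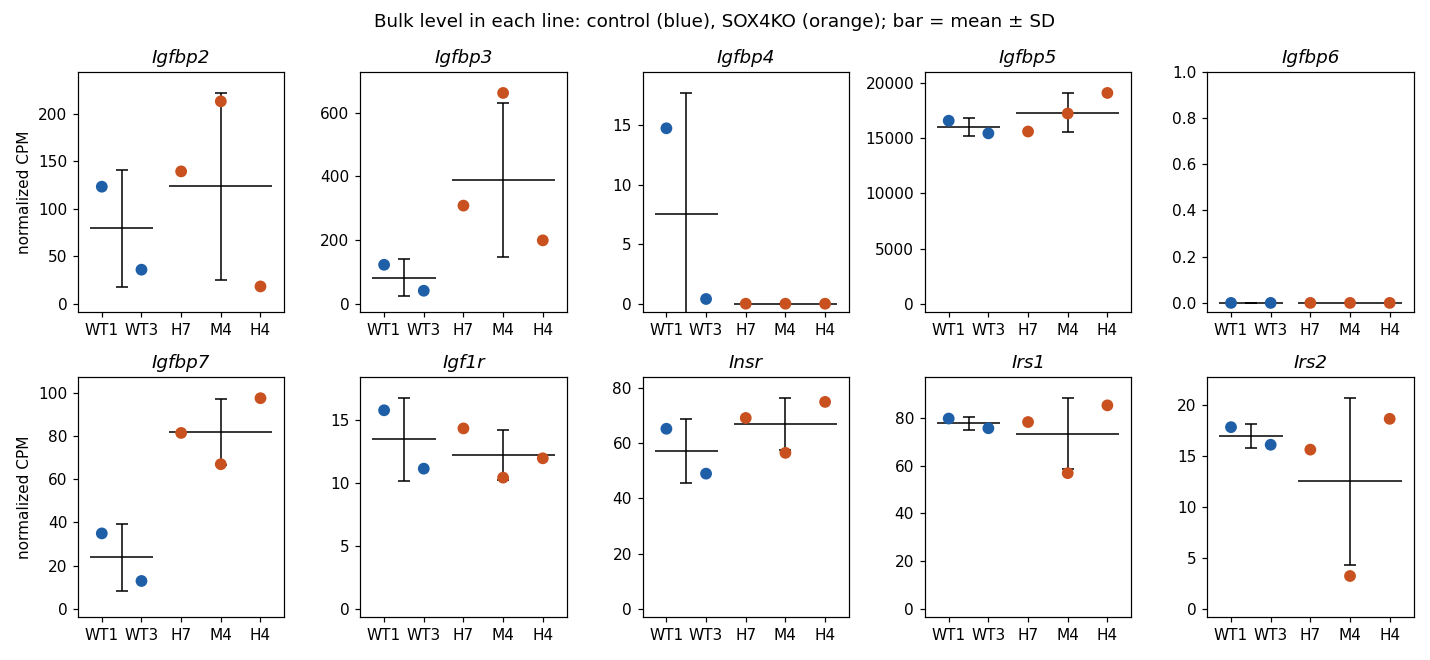
Normalized CPM (vertical axis, linear) of each of the 10 members in the 2 control lines (blue) and the 3 SOX4KO lines (orange). Horizontal bars are group means and vertical bars 1 SD. Igfbp3 and Igfbp7 have every SOX4KO line above both control lines, Igfbp5 lies between 15448 and 19110 CPM in all lines, and Igfbp6 is at 0.

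Igfbp3 (ENSMUSG00000020427) encodes the main carrier of IGFs in blood, which also acts locally in tissues. Its normalized CPM were 122 in WT1 and 40.8 in WT3, and 308 in H7, 663 in M4 and 199 in H4. Every SOX4KO line lay above both control lines, with 3.33-fold between the lowest and highest SOX4KO line and 3.0-fold between the control lines. The group means were 81.6 ± 57.7 (SD, n = 2) and 390 ± 242 (SD, n = 3), a log2 fold change of 2.26 (SE 0.60; 95% interval 0.89 to 3.63) with an edgeR adjusted p of 0.0892. The call was close to the threshold and was lost in DESeq2 (adjusted p = 0.110) and without WT1 (0.111), WT3 (0.515), H7 (0.111) or M4 (0.120). The log2 fold change was 3.25 without WT1, 1.67 without WT3 and 1.64 without M4.

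The order of the lines by Igfbp3 was also their order by the summed CPM of 14 basal markers. That sum was 1751 in WT3, 2558 in WT1, 3295 in H4, 5801 in H7 and 7855 in M4, and none of the 14 genes was at 0 in all lines. Sparc, which encodes a matrix protein, made up much of it, with 732, 1302, 1692, 3763 and 5342 CPM in the same order of lines. Single basal keratins did not follow that order. Krt14 was lower in H7 (107 CPM) than in either control line (235 and 240), and Krt17 was at most 11.6 CPM. Krt5 was highest in H7 and M4 (410 and 472 CPM), but H4 (112) lay below WT1 (191). Like Sparc, the basal markers Trp63, Mylk, Oxtr, Itgb4, Snai2, Vim and Jag2 had every SOX4KO line above both control lines. For Myl9 and these keratins the groups overlapped. Of all genes tested, 36.9% had groups that did not overlap, in either direction. The sum of 15 luminal markers was 3726 and 3649 in the control lines and 2975, 2805 and 5432 in H7, M4 and H4. Much of the H4 sum was the milk protein gene Csn3, with 2287 CPM there. Csn3 had 337 and 271 CPM in WT1 and WT3, and 741 and 165 in H7 and M4. The sum of 15 genes of cycling cells was 894 and 872 in the control lines against 438, 592 and 383. The part of these shifts in the Igfbp3 and Igfbp7 differences was not tested.

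Igfbp7 (ENSMUSG00000036256) encodes a secreted protein found around vessels and epithelia. It had 34.9 CPM in WT1 and 12.9 in WT3, against 81.4, 67.0 and 97.5 in H7, M4 and H4. The lowest SOX4KO line was thus above the higher control line, and the 3 SOX4KO lines lay close together. The means were 23.9 ± 15.6 (SD, n = 2) and 81.9 ± 15.3 (SD, n = 3), with a log2 fold change of 1.80 (SE 0.39; 95% interval 0.91 to 2.68) and an edgeR adjusted p of 0.0492. Unlike Igfbp3, its order among the SOX4KO lines did not follow the basal markers, since H4 had the highest Igfbp7 level and the lowest basal sum. Without WT3 the log2 fold change was 1.23 and the call was lost (adjusted p = 0.280), and without WT1 it was 2.66.

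Igfbp5 (ENSMUSG00000026185) had 16594 and 15448 CPM in WT1 and WT3 and 15612, 17247 and 19110 in H7, M4 and H4. The groups overlapped, and the lines differed little beside the level of the gene. The log2 fold change was 0.11 (SE 0.25; 95% interval -0.45 to 0.68; edgeR adjusted p = 0.865), so the interval leaves room for a change of less than 2-fold in either direction. In RPKM, which divides CPM by the length of the gene in kilobases and so allows genes to be compared, Igfbp5 ranked from 6th to 10th of 36429 genes in every line, and it took 1.51% to 1.88% of all reads on genes.

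Igfbp2 (ENSMUSG00000039323) encodes a binding protein with a preference for IGF2 and an RGD sequence that integrins recognise. It varied most among the well-counted members, with 123 CPM in WT1 and 35.8 in WT3, and 139, 213 and 18.2 in H7, M4 and H4. The SOX4KO lines spanned 11.7-fold and lay on both sides of the controls. Its log2 fold change of 0.63 (SE 0.84, 95% interval -1.28 to 2.55) did not pass the test (edgeR adjusted p = 0.765). It went to -0.016 without M4 and to -0.0039 without WT3. Without the filter on low counts edgeR called Igfbp2 higher (adjusted p = 0.0705). The log2 fold change was then nearly the same, 0.62, but the SE was 0.22, and that setting called 1008 genes higher and 678 lower.

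Igfbp4 (ENSMUSG00000017493), whose product mainly inhibits IGF action, had 57 reads in WT1, 2 in WT3 and 0 in each SOX4KO line. It was therefore seen almost only in 1 control line. A count of 0 over the 3 SOX4KO libraries allows up to 0.278 CPM (3 counts over the group, counting error only), and the control mean of 7.58 CPM was at least 27.2-fold higher than that limit, a bound that rests on WT1. Too few libraries held reads for the main test, and without the filter on low counts edgeR called it lower. Igfbp6 (ENSMUSG00000023046), an inhibitor that favours IGF2, had 0 reads in all 5 lines.

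In the bulk libraries the receptors had low RNA levels, and neither passed the test. Igf1r (ENSMUSG00000005533) had 15.8 and 11.2 CPM in WT1 and WT3 and 14.4, 10.4 and 12.0 in H7, M4 and H4, and its log2 fold change was -0.12 (SE 0.29; 95% interval -0.78 to 0.54; edgeR adjusted p = 0.875). Insr (ENSMUSG00000005534) had 65.2 and 49.0 CPM against 69.1, 56.5 and 75.0, with a log2 fold change of 0.23 (SE 0.21; 95% interval -0.24 to 0.71; adjusted p = 0.628). For both receptors the genotypes overlapped and each interval was narrower than 2-fold in either direction. Per length, Insr was above Igf1r in every line, at 3.74 to 5.35 against 0.57 to 1.0 RPKM.

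The substrates were likewise not separated by genotype. Irs1 (ENSMUSG00000055980) had 79.7 and 75.7 CPM in the control lines and 78.3, 56.9 and 85.3 in H7, M4 and H4 (log2 fold change -0.08, SE 0.21; 95% interval -0.55 to 0.40; edgeR adjusted p = 0.893). Irs2 (ENSMUSG00000038894) had 17.9 and 16.1 CPM in the control lines and 15.7, 3.24 and 18.7 in H7, M4 and H4. M4 stood apart from the other 4 lines with 9 reads of Irs2, and the other lines held 60 to 81. The log2 fold change of Irs2 was -0.40 (SE 0.53; 95% interval -1.61 to 0.81; adjusted p = 0.765) with all lines and 0.012 without M4, the line with the fewest reads on genes.

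Ordered per length, the control means were 2667 RPKM for Igfbp5, 43.1 for Igfbp2, 26.1 for Igfbp3, 19.8 for Igfbp7, 8.50 for Irs1, 4.15 for Insr, 2.69 for Irs2, 1.72 for Igfbp4 and 0.80 for Igf1r. Igfbp2, Igfbp3 and Igfbp7 kept this order within each control line, at 70.8, 41.5 and 30.7 RPKM in WT1 and 20.8, 14 and 11.5 in WT3. In the SOX4KO lines the order was Igfbp5 (2884 RPKM), Igfbp3 (125), Igfbp7 (67.8), Igfbp2 (66.9), Irs1 (8.03), Insr (4.86), Irs2 (1.98) and Igf1r (0.73), but the order of Igfbp3, Igfbp7 and Igfbp2 differed from line to line. Igfbp5 thus stood far above every other member in both genotypes, and Igf1r had the lowest RPKM of the receptors and substrates in every line but M4, where Irs2 was lower (0.47 against 0.57).

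Of 75 other genes of IGF and insulin signaling, 53 were tested in bulk, 2 were called higher in SOX4KO and 0 lower by edgeR, a number near the 4.1% of all tested genes called higher. At an unadjusted p under 0.05, 7 were higher and 1 lower by edgeR, where 18.1% of all genes passed in either direction. DESeq2, at an adjusted p under 0.1, called 5 higher and 0 lower, beside 658 and 305 of all genes. The median log2 fold change was 0.14, with 40 genes above 0 and 13 below, against 5941 and 5741 of all genes tested. Enpp1, a phosphodiesterase that can inhibit the insulin receptor, had 152 and 129 CPM in the control lines against 522, 318 and 341 in H7, M4 and H4 (log2 fold change 1.49, SE 0.26; edgeR adjusted p = 0.0284). Every SOX4KO line lay above both control lines for Enpp1.

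Enpp1 was the 1 gene called among 8 tested feedback inhibitors, of which 7 had a log2 fold change above 0. Among 13 tested genes of mTOR, 6 were above 0 and 7 below, and 6 of 7 tested adaptors were above 0. The ligands were nearly absent. Igf1 had 0 and 3 reads in the control lines and 0, 5 and 0 in H7, M4 and H4, Igf2 had 2 and 0 reads against 2, 3 and 1, and none of 4 ligand genes could be tested.

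The single-cell plates held 369 (GR17), 369 (GR18) and 362 (GR19) wells with at least 1000 unique molecular identifiers (UMIs), with medians of 19845, 20525 and 21876.5 UMIs per cell. With 1 control plate there is no test, genotype and plate cannot be told apart, and the Poisson and binomial intervals given cover counting error only. Mitochondrial genes took 11.4%, 12.5% and 15.1% of the UMIs, in the same order of plates. Well numbers are positions that every plate shares. Sox4 had 118, 82.5 and 110 CPM in GR17, GR18 and GR19. Of 5 members with at least 20 CPM on average, 2 were at least 2-fold higher in both SOX4KO plates and 0 were lower, where 2.24% of 6303 genes passed the same rule, 1.92% as higher and 0.317% as lower.

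**Figure D2:**
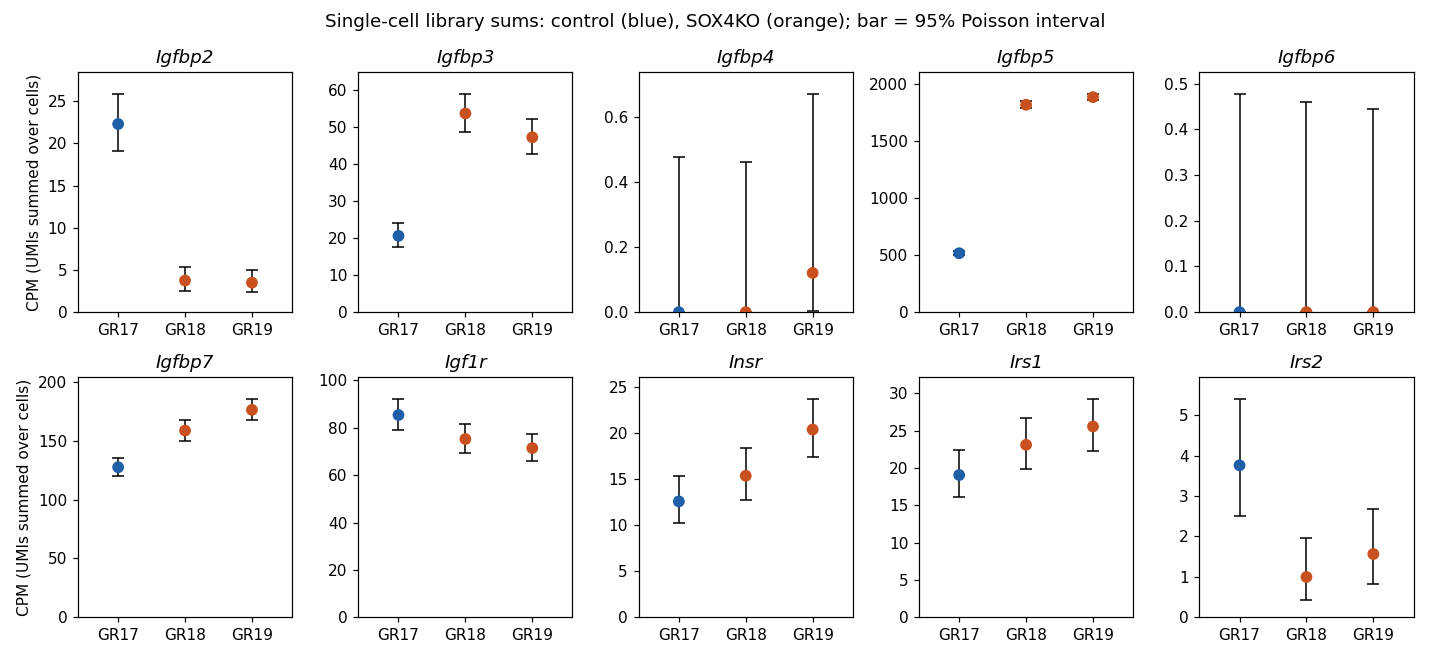
CPM of the 10 members in the UMIs summed over each single-cell plate (vertical axis, linear), for the control plate GR17 (blue) and the SOX4KO plates GR18 and GR19 (orange), with 95% exact Poisson intervals. Igfbp5 is at 516 CPM in GR17 and at 1816 and 1883 CPM in GR18 and GR19, Igfbp3 is also higher in both SOX4KO plates, and Igfbp2 is lower in both.

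Igfbp5 had 516 CPM (95% Poisson interval 500 to 532) in GR17, 1816 (1787 to 1846) in GR18 and 1883 (1854 to 1913) in GR19. The 2 SOX4KO plates were close to each other and 1.81 and 1.87 above the control plate on the log2(CPM + 1) scale. By level it was the 244th gene of the control plate and the 58th and 47th of the SOX4KO plates. At least 1 UMI of it was seen in 78.6% of control cells (95% exact binomial interval 74.0% to 82.7%) and in 97.8% of cells on each SOX4KO plate.

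The median cell held 3 Igfbp5 UMIs in GR17, 16 in GR18 and 26.5 in GR19. In the control plate its UMIs were also less evenly spread, and the top 10% of cells held 61.7% of them, against 43.1% and 40.6%. Thinned to 10000 UMIs per cell, which left 334, 330 and 342 cells, the shares were 68.3%, 92.7% and 95.3%, in the same order. No cell type known to lack these genes was on the plates, so no background share from free RNA can be set beside them.

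**Figure D3:**
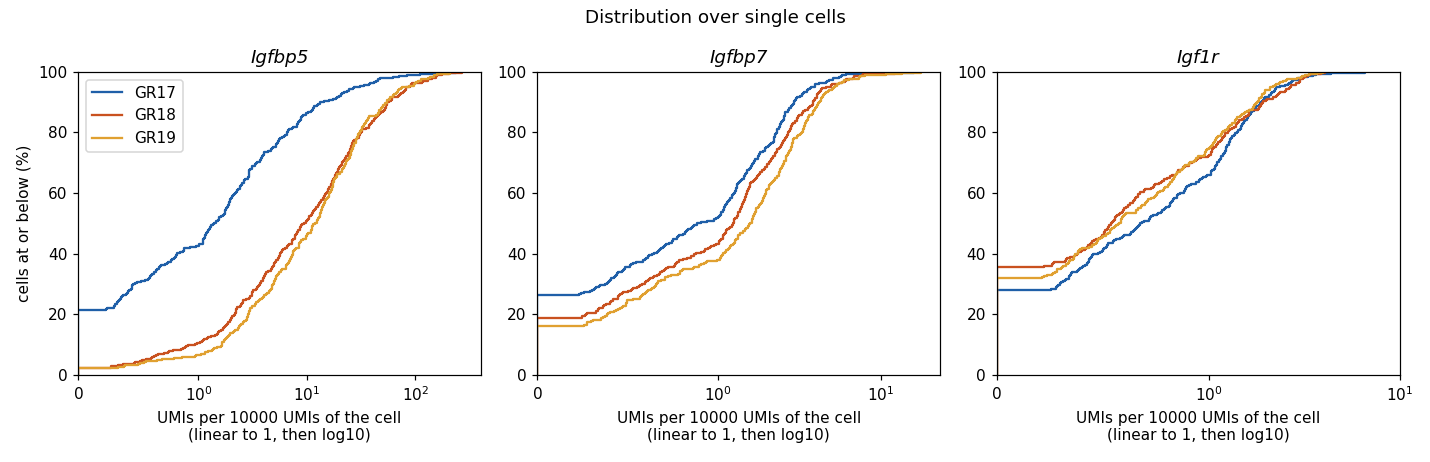
Cumulative share of cells (vertical axis, %) at or below a given number of UMIs per 10000 UMIs of the cell (horizontal axis, linear to 1 and log10 above) for Igfbp5, Igfbp7 and Igf1r in the control plate GR17 (blue) and the SOX4KO plates GR18 and GR19 (orange and yellow). The Igfbp5 curves of the SOX4KO plates lie to the right over nearly the whole range of cells, with medians of 16 and 26.5 raw UMIs per cell against 3.

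Igfbp3 had 20.6 CPM (17.5 to 24.1) in GR17, 53.7 (48.7 to 59.0) in GR18 and 47.2 (42.7 to 52.2) in GR19, a log2(CPM + 1) difference of 1.34 and 1.16. It was thus higher in both SOX4KO plates, as in bulk, although the basal marker sum was 5519, 5848 and 3449 CPM in the same order and did not follow it. It was no longer past 2-fold in both plates with 10 CPM added. The share of cells with an Igfbp3 UMI was 24.9% in GR17, 42.5% in GR18 and 30.9% in GR19, and the intervals of GR17 and GR19 overlapped.

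Igfbp7 had 127, 159 and 176 CPM in GR17, GR18 and GR19. Both SOX4KO plates were above the control plate beyond counting error, but the differences of 0.31 and 0.46 on the log2(CPM + 1) scale were smaller than the bulk log2 fold change of 1.80. Igfbp2 went the other way, with 22.3 CPM (172 UMIs) in GR17 against 3.75 (30 UMIs) in GR18 and 3.50 (29 UMIs) in GR19. The share of cells with an Igfbp2 UMI was 28.5% in the control plate and 6.50% and 6.08% in the SOX4KO plates, and 16.8%, 3.33% and 3.22% after thinning. Its mean level was under the 20 CPM needed to be counted among the genes past 2-fold.

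The receptors and Irs1 differed by less than 2-fold between plates. On the plates Igf1r had the highest CPM of these genes. It had 85.4 (79.0 to 92.2), 75.3 (69.4 to 81.5) and 71.5 (65.8 to 77.5) CPM in GR17, GR18 and GR19, Insr 12.6, 15.4 and 20.4, and Irs1 19.1, 23.1 and 25.6. In bulk the order was the other way, with Igf1r at 10.4 to 15.8 CPM, below Insr and Irs1 in every line. CPM is not a level per length, and the cause of the reversed order was not tested. Irs2 was sparse, with 29, 8 and 13 UMIs per plate. Igfbp4 had 1 UMI in GR19 and 0 elsewhere, and Igfbp6 had none. Of the other pathway genes, 36 had at least 20 CPM and 0 were past 2-fold in both SOX4KO plates. Enpp1 had 38.5, 54.7 and 56.8 CPM in GR17, GR18 and GR19. The ligands Igf1 and Igf2 had 1 to 5 UMIs per plate.

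**Figure D4:**
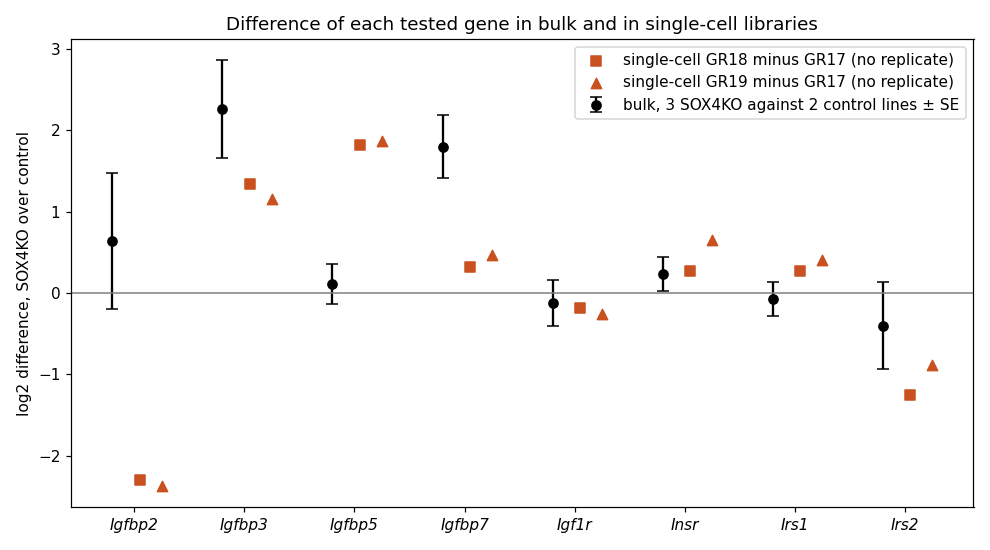
Log2 difference of SOX4KO over control (vertical axis) for the 8 members tested in bulk (black, fold change ± SE, 3 against 2 lines) and for each SOX4KO plate against the control plate (orange squares GR18, triangles GR19, log2(CPM + 1), no replicate). Igfbp3 is above 0 in all 3 comparisons, Igfbp5 is near 0 in bulk and at 1.81 and 1.87 on the plates, and Igfbp2 lies at 0.63 in bulk and at -2.30 and -2.37 on the plates.

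Igfbp3 and Igfbp7 were thus higher in the SOX4KO lines and on both SOX4KO plates, although Igfbp7 by only 0.31 and 0.46 on the plates. The bulk interval of Igfbp5, -0.45 to 0.68, lay below the plate differences of 1.81 and 1.87. Igfbp2, lower on both SOX4KO plates, had a bulk value whose sign turned when M4 or WT3 was left out. The control level of Igfbp5 was 15448 to 16594 CPM in bulk and 516 CPM on the plate. Read counts and UMI counts come from different kinds of library, so their CPM cannot be set on 1 scale, and the cause of these differences was not tested.

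The cells were grouped into 7 clusters, A to G by size, with the members left out of the clustering. Clusters A and F were mostly control cells (225 of 229 and 105 of 120), and B, C, D, E and G mostly SOX4KO cells, so a cluster may be a plate rather than a cell state. Cluster B had the highest basal marker sum (8554 CPM) and a low sum of cycling genes (737 CPM), and cluster E the highest luminal sum (6093 CPM) with 722 CPM of cycling genes. Clusters A, C, D and G had sums of cycling genes of 3534 to 3970 CPM, and F had 1620. The leading genes by fold were Krt17, Tuba1a and Aldh3a1 in A, Postn, Pip and Ndrg1 in B, and 1600029D21Rik, S100a8 and Csn3 in E.

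Igfbp5 was highest in B (3453 CPM) and E (2957 CPM), the basal-marker-rich and the luminal-marker-rich cluster that shared low cycling sums. It was 330 in A, 503 in F, 790 in G, 944 in C and 1148 in D. The GR18 and GR19 cells had 3301 and 3394 CPM in B, 2933 and 3023 in E, 819 and 758 in G, and 805 and 1105 in C. The plates thus differed less than B and E did from C and G, but in C they differed more than C and G did within GR18. Both large control clusters, with 333 CPM in A and 390 in F, were below every SOX4KO cluster of at least 20 cells. The 14 control cells in E, however, had 2712 CPM (95% Poisson interval 2510 to 2927), near the SOX4KO cells of that cluster, and the 9 control cells in B had 8163 CPM. The 16 control cells in D had 482 CPM, below the 1320 and 1180 CPM of SOX4KO cells there. These small sets were singled out after their values were seen.

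Igfbp3 was concentrated in a different way. It had 130 and 103 CPM in cluster B in GR18 and GR19 and 3.29 and 1.51 in cluster E, so that the 2 clusters alike in Igfbp5 were opposite in Igfbp3. Over all plates it was 66.0 in C, 37.6 in G, 23.0 in A, 18.3 in F and 6.75 in D. The 3 lowest clusters by basal marker sum, E (1260), D (1325) and F (3913), were also the 3 lowest by Igfbp3. Above these the order did not hold, since A had a higher basal sum (6437) than C (5618) and G (5658) but less Igfbp3. Igfbp7 varied less, from 101 CPM in D to 230 in B. Irs1 ran from 11.0 CPM in G to 33.4 in E, the cluster highest in luminal markers, and Igf1r from 58.9 in E to 93.5 in C.

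**Figure D5:**
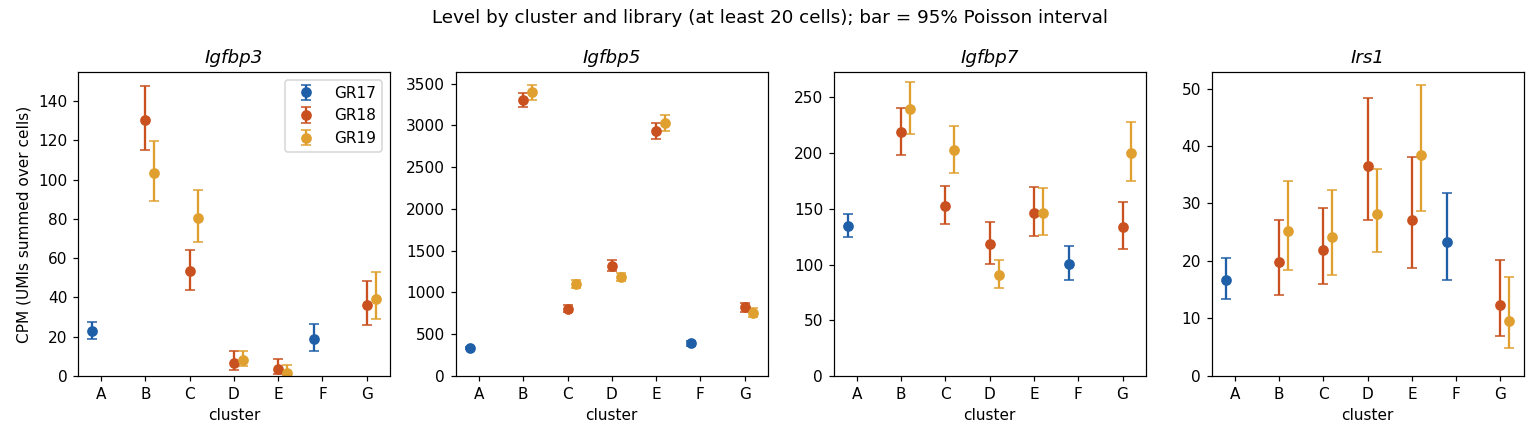
CPM in UMIs summed by cluster (horizontal axis, A to G) and plate for Igfbp3, Igfbp5, Igfbp7 and Irs1 (vertical axes, linear), for sets of at least 20 cells, with 95% exact Poisson intervals and the control plate GR17 in blue. Igfbp5 is highest in clusters B and E, whereas Igfbp3 is high in B and near 0 in E.

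Across cells, the Spearman correlation of Igfbp3 with the basal marker sum was 0.26, 0.54 and 0.46 in GR17, GR18 and GR19, and with the luminal sum -0.12, -0.37 and -0.43. For Igfbp7 the values had the same signs, at 0.09, 0.20 and 0.38 with the basal sum and -0.12, -0.16 and -0.27 with the luminal sum. Igfbp5 went with the cycling sum at 0.01, -0.46 and -0.36. These values are descriptions over 362 to 369 cells of 1 plate each, and the cells share library and depth. The genes whose level across cells was most like that of a member, by the mean Spearman correlation over the 3 plates among 7245 genes, were Sparc (0.43), Krt14 (0.36) and Fam101b (0.36) for Igfbp3. They were Wwp2 (0.42), Ctsd (0.38) and Col11a1 (0.38) for Igfbp5, and Lgals9 (0.33), Cpe (0.30) and Col18a1 (0.29) for Igfbp7. For Igf1r (Itga3, Itgb4 and Pi15), Insr (mtNd5, Akap13 and mt-Rnr2) and Irs1 (Nfkbiz, St8sia6 and Krt18) the highest means were 0.19, 0.15 and 0.19. These were below the highest means of the binding proteins, and no pattern is described from them. Igfbp5 and Igfbp7 had a correlation of 0.24, 0.19 and 0.27 with each other in the 3 plates.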

How the data were processed

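Bulk RNA of 5 organoid lines and plate-based single-cell RNA of 3 plates were analysed. For both, the authors deposited raw counts without normalization: reads counted per Ensembl gene in bulk, and UMI counts per gene and well for single cells. Per the labels, the submitters' processing notes list STAR 2.4.2a, HTSeq and the mouse builds NCBIM37 and mm9. Coordinates of that build are not printed, and none were converted; promoter windows and lengths come from GRCm38. Rows naming no gene were left out of totals, and reads outside genes were 46.6% to 64.7% per library.

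For bulk counts, genes were filtered with filterByExpr, scaled by TMM and compared with the quasi-likelihood test of edgeR 4.0.16 (R 4.3.3). P-values were adjusted by Benjamini-Hochberg over 11682 genes and called at an adjusted p under 0.1. Replicates are clonal lines, and p-values measure the spread between them. DESeq2 1.42.0 was an alternative, as were other filters, scaling, thresholds and leaving out each line. Single-cell wells with at least 1000 UMIs were summed per plate as CPM and, for differences, given 1 CPM added before log2. Intervals are 95% exact Poisson or binomial (Clopper-Pearson), and a count of 0 was given a limit of 3 counts. No doublets were removed, and 8, 20 and 11 wells had over 2 times the median UMIs of their plate. Clusters came from Seurat 5.3.0 (2000 variable genes without the members, 10 components, 20 neighbours, resolution 0.5, genes in at least 3 cells). The members and the lists were chosen with earlier results of these data known. Named genes are the 10 members, Sox4, pathway genes called by edgeR, Igf1, Igf2 and, per member with a UMI in at least 20% of cells of every plate, the 3 genes of highest mean correlation. Steps were tested on simulated data. Protein sequences were not used here. The values of 1 pathway gene that this rule names are not reported here.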

Additional observations from a re-analysis of the deposited data

How the results depend on the processing

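Calls at an adjusted p under 0.1 rested on few lines. With only genes at 0 reads removed, edgeR called 1008 genes higher and 678 lower, and at an adjusted p under 0.05 it called 241 and 113. Leaving out 1 line moved the count of higher genes between 30 (without WT3) and 600 (without M4), and that of lower genes between 24 and 369, with 108 and 45 without WT1. Of the members, 1 was called higher by DESeq2 and 1 at an adjusted p under 0.05, and without the filter 3 were called higher (Igfbp2 was added, at an adjusted p of 0.0705) and 1 (Igfbp4) lower. Leaving out 1 line gave 0 to 2 members called higher, 0 of them without WT3 and 1 without WT1, H7 or M4. Of the other pathway genes, 5 were called higher by DESeq2, 6 without the filter and 1 at an adjusted p under 0.05, and 0 (without WT3) to 5 (without M4) when 1 line was left out, with 1 without WT1 or H7. The sign of a member that was not called turned in 5 cases: Igfbp2 to -0.0039 without WT3 and -0.016 without M4, Igf1r to 0.14 without WT1, Irs1 to 0.068 and Irs2 to 0.012 without M4. With 1 line left out, the log2 fold change ran from -0.016 to 1.78 for Igfbp2, from -0.36 to 0.14 for Igf1r, from -0.20 to 0.068 for Irs1 and from -0.79 to 0.012 for Irs2. On the plates, 1 member in place of 2 was past 2-fold with 10 CPM added or at a minimum of 50 CPM, the latter since Igfbp3 lies under that minimum. At a clustering resolution of 0.3, Igfbp5 ran from 376 to 3597 CPM over clusters (330 to 3453 at 0.5) and the lowest Igfbp7 was 122 CPM (101 at 0.5). Scaling by DESeq2 size factors, a minimum of 1 CPM in 3 libraries, UMI minimums of 500 and 2000 and totals without mitochondrial genes and Rn45s left the counts of members called or past 2-fold as they were. The causes were not tested. No paired analysis was possible because the lines are independent clones and their labels share no replicate number. With 2 control lines, smaller changes than those of Igfbp3 and Igfbp7 may go uncalled.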
